A study of Mus musculus with 7 samples.

Results

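The cytosolic peptidases that cut the products of the proteasome were examined in sorted cells of irradiated B16 tumours, with Lap3 (leucine aminopeptidase 3) at the centre. The members were 10 genes taken by symbol from the 56953 genes of the files: Lap3, Npepps, Tpp2, Thop1, Nln, Rnpep, Blmh, Nrd1, Dpp9 and Lnpep. Lap3 was put at the centre because it was higher with AAV-iIL12 in earlier results of these libraries. The members' values in that contrast are therefore given as a description, with no p-value. All 10 members passed the filter on low counts.

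RNA came from B16 tumours, a mouse melanoma line, taken 5 days after treatment. After staining with a Zombie viability dye, cells negative for the leukocyte marker CD45 and the endothelial marker CD31 were sorted for sequencing of poly(A) RNA. The 3 AAV-iIL12 libraries came from mice given radiotherapy (RT, 8 Gy) with the vector AAV-iIL12, and the 4 AAV-iLuc libraries from mice given the same RT with the control vector AAV-iLuc. All 7 mice were thus irradiated, and AAV is adeno-associated virus, a gene delivery vector. Each group counts mice in the series' design text, while the labels do not give the age, the sex or the cells that took up the vector. The titles of the AAV-iIL12 libraries carry WT and those of the AAV-iLuc libraries do not. The labels do not say what WT refers to, so a difference in genotype and the vector cannot be told apart here.

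Proteasomes release peptides that are mostly destroyed in the cytosol by peptidases that take off single residues, pairs or triplets, or cut inside the chain. A small share escapes, enters the endoplasmic reticulum through the TAP transporter, is trimmed again there by ERAP1 and is loaded on class I MHC molecules. Leucine aminopeptidase is known from human cells as an enzyme that interferon gamma induces together with the immunoproteasome. Of the 10 members, Lnpep is not strictly cytosolic, since it encodes a membrane-anchored aminopeptidase of endosomal vesicles.

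The start regions of 4 genes are shown. Lap3, Lnpep and Thop1 were the 2 highest and the lowest member by fold change. Erap1, the aminopeptidase of the endoplasmic reticulum, is not a member and is shown beside them. Each window runs from 250 bases before to 50 bases after the annotated start, from RefSeq on GRCm38.p6, written 5′ to 3′ on the gene's strand. These coordinates are not those of the count files, which use GRCm39. Capitals mark GGGCGG on either strand (the GC box) in the members, and, in Erap1, the core of an interferon-stimulated response element (GAAA, any 2 bases, GAAA, on either strand). The Erap1 window also holds 1 GC box, which is not marked.
Lap3 (chr5:45493124-45493423, + strand): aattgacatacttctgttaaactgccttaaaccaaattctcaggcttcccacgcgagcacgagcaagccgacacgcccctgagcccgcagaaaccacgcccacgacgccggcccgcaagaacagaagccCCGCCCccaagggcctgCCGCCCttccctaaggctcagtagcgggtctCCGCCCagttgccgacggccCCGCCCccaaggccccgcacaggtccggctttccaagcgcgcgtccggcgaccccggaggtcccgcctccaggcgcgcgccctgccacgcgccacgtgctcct
Lnpep (chr17:17624440-17624739, - strand): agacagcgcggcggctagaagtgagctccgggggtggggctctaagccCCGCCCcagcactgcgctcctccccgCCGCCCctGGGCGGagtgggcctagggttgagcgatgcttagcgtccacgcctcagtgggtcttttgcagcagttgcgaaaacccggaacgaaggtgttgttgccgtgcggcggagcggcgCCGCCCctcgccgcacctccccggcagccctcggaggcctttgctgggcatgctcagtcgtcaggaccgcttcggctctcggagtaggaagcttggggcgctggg
Thop1 (chr10:81069833-81070132, + strand): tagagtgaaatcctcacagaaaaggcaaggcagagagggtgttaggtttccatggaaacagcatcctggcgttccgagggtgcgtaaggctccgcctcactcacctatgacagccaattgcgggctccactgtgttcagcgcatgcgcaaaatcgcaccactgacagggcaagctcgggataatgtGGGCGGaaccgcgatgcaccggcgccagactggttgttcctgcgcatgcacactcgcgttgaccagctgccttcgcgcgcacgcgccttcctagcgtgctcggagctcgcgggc
Erap1 (chr13:74639603-74639902, + strand): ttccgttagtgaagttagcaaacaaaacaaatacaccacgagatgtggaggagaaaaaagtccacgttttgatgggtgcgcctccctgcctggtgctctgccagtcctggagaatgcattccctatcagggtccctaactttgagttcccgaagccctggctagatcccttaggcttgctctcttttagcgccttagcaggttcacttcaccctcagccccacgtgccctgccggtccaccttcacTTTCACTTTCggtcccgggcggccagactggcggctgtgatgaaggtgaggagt

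All 10 members had 1 window each. The response element core was found on either strand in 0 of 10 members and in 3.44% of all 32851 windows in the table. TTCNNNGAA, the gamma-activated sequence, was found in 0 of 10 members and in 8.3% of all windows. The Lap3 window had 4 GC boxes, at 121, 104, 73 and 53 bases before the start, and 9 of 10 members had at least 1, against 35.7% of all windows. The exception was Dpp9. The GC box was searched after the windows had been seen, and its matches do not overlap those of the other motifs in the windows shown. The members' windows held 59% (Nrd1) to 79% (Npepps) G or C. The share over all windows was not matched for this, so nothing is read from the GC box count. Among 6 interferon gamma signal genes, all 6 had a window that held at least 1 of the first 2 motifs, while 2 of 5 immunoproteasome and activator genes did. A motif missing from a window says only that these letters are not there.

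The libraries held between 16356653 and 19080587 counts. Melanocyte markers (Pmel, Dct, Tyr, Tyrp1, Mlana, Mitf, Sox10) were all expressed and summed to between 27845 and 28742 CPM (counts scaled to library size with TMM factors) in AAV-iIL12 and between 22839 and 25991 CPM in AAV-iLuc. Leukocyte markers (9 genes) summed to between 23.4 and 31.7 CPM in the AAV-iIL12 libraries and between 14.7 and 29.4 CPM in AAV-iLuc. AAV-iLuc replicate 1 was the highest of its group. Most of the sum was Cd68, at 16.4 CPM there and 16.8 CPM in replicate 2. Lyz2, Ptprc and Laptm5 set replicate 1 apart. Ptprc was at 2.44 CPM there and at most 0.412 CPM in replicates 2 to 4. Laptm5 was at 2.76 and at most 0.670 CPM. In AAV-iIL12 they lay between 1.04 and 2.44 CPM and between 0.989 and 2.68 CPM. Cd8a (16 counts in all) was found in all 3 AAV-iIL12 libraries and was 0 in all 4 AAV-iLuc libraries. Of the 9 markers 4 were tested, and 0 passed in edgeR or DESeq2. In limma-voom 1 was called higher, where 3328 of all 13990 genes tested were called higher. At an unadjusted p under 0.05 edgeR gave 1 higher and 0 lower. Endothelial markers summed to at most 0.609 CPM in the AAV-iIL12 libraries and 0.416 CPM in AAV-iLuc, with Cdh5 at 0 in all 7 libraries. Fibroblast markers (5 genes) lay between 41.7 and 103 CPM in the AAV-iIL12 libraries and between 56.5 and 165 CPM in AAV-iLuc. Pericyte markers (3 genes) summed to at most 3.78 CPM in the AAV-iIL12 libraries and 3.04 CPM in AAV-iLuc. AAV-iLuc replicate 1 stood apart in interferon gamma signal genes (Irf1, Socs1, Gbp2, Gbp5, Igtp, Cxcl10). These summed to at least 5109 CPM in AAV-iIL12, against 444.5 CPM in that library and 98.0, 63.6 and 43.2 CPM in AAV-iLuc replicates 2, 3 and 4.

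Lap3 (ENSMUSG00000039682, chromosome 5, 45650716 to 45670033, plus strand, GRCm39) encodes an aminopeptidase that takes leucine and other residues from the start of peptides. It stood at 337, 325 and 325 CPM in AAV-iIL12 replicates 1 to 3, against 96.3, 81.7, 85.1 and 71.5 CPM in AAV-iLuc replicates 1 to 4. All 3 AAV-iIL12 libraries were far above all 4 AAV-iLuc libraries, and the groups did not overlap. The means were 329 ± 7.09 CPM in AAV-iIL12 (SD, n = 3) and 83.7 ± 10.2 CPM in AAV-iLuc (SD, n = 4). The log2 fold change was 1.98 ± 0.09 (SE), a 3.93-fold difference. Leaving out AAV-iLuc replicate 1 gave 2.05. The fold change of Lap3 lay at percentile 97.5 of the 13990 genes tested. In bulk RNA, fewer cells of a type and less RNA per cell cannot be told apart.

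**Figure D1:**
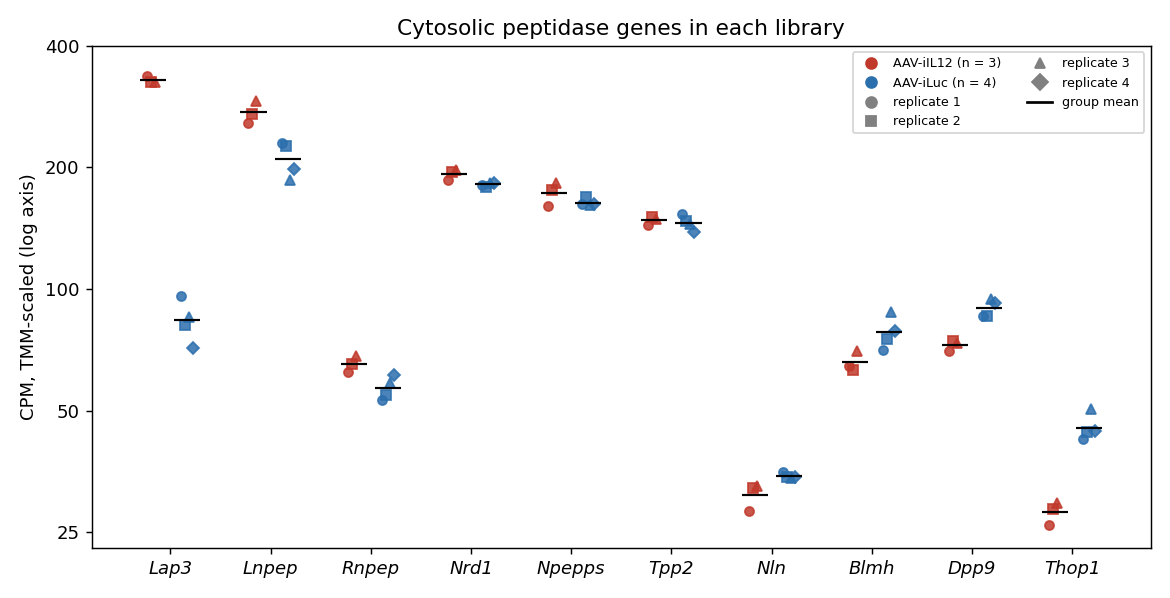
CPM (TMM-scaled, log axis) of the 10 peptidase genes in each AAV-iIL12 library (red, left of each pair) and AAV-iLuc library (blue, right), with marker shape for the replicate and black bars for group means; genes run from the highest to the lowest log2 fold change. Lap3 at 329 against 83.7 CPM shows the widest gap, and the AAV-iIL12 and AAV-iLuc points of the other 9 genes lie much closer to each other.

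The other aminopeptidases differed far less. Lnpep (ENSMUSG00000023845, chromosome 17, 17741672 to 17845312, minus strand), known as insulin-regulated aminopeptidase, which trims peptides in endosomes, stood at 257, 272 and 293 CPM in the AAV-iIL12 libraries and 229.9, 226, 187 and 199 CPM in AAV-iLuc. All 3 AAV-iIL12 libraries were above all 4 AAV-iLuc libraries, by a log2 fold change of 0.38 ± 0.08 (SE), or 1.30-fold. Rnpep (ENSMUSG00000041926, chromosome 1, 135190450 to 135211822, minus strand), aminopeptidase B, which takes off arginine and lysine, stood at 62.3, 65.1 and 68.4 CPM in the AAV-iIL12 libraries and 53.2, 54.6, 58.5 and 61.2 CPM in AAV-iLuc. Its groups were also apart, but only narrowly, with a log2 fold change of 0.20 ± 0.06 (SE). Npepps (ENSMUSG00000001441, chromosome 11, 97096668 to 97171464, minus strand), the puromycin-sensitive aminopeptidase of the cytosol, stood at 161, 176 and 183 CPM in the AAV-iIL12 libraries and 162, 169, 161 and 163 CPM in AAV-iLuc. Its groups overlapped, and its log2 fold change of 0.08 ± 0.06 (SE) was -0.01 with library size as the only scaling. It was 0.14 without AAV-iIL12 replicate 1 and 0.046 without AAV-iIL12 replicate 3. Blmh (ENSMUSG00000020840, chromosome 11, 76815635 to 76878205, plus strand), bleomycin hydrolase, a cysteine aminopeptidase, was lower in AAV-iIL12, at 64.4, 62.9 and 70.4 CPM against 70.6, 75.4, 87.8 and 78.8 CPM in AAV-iLuc. The highest AAV-iIL12 library and the lowest AAV-iLuc library of Blmh almost touched, and its log2 fold change was -0.24 ± 0.08 (SE).

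Of the peptidases that take off more than 1 residue, Tpp2 (ENSMUSG00000041763, chromosome 1, 43972807 to 44042160, plus strand), a giant serine peptidase that releases tripeptides, overlapped between the groups. It stood at 144, 151 and 149 CPM in the AAV-iIL12 libraries and 154, 147, 145 and 138 CPM in AAV-iLuc, a log2 fold change of 0.02 ± 0.05 (SE). That value was -0.07 with library size only, -0.05 with upper quartile scaling, -0.01 with the replicate number as a block and -0.0054 without AAV-iLuc replicate 4. It was 0.049 without AAV-iLuc replicate 1, 0.041 without AAV-iIL12 replicate 1 and 0.010 without AAV-iIL12 replicate 2. Dpp9 (ENSMUSG00000001229, chromosome 17, 56493807 to 56525905, minus strand), which cuts dipeptides after proline and is known to restrain the NLRP1 inflammasome, was lower in AAV-iIL12. It stood at 70.4, 74.2 and 73.5 CPM in AAV-iIL12 against 85.8, 85.7, 94.4 and 92.3 CPM in AAV-iLuc, with groups well apart and a log2 fold change of -0.30 ± 0.05 (SE).

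The endopeptidases included the member that was lowest in AAV-iIL12 relative to AAV-iLuc. Thop1 (ENSMUSG00000004929, chromosome 10, 80905869 to 80918393, plus strand) encodes thimet oligopeptidase, a metallopeptidase that cuts inside short peptides and is known to destroy class I MHC ligands. It stood at 26.0, 28.6 and 29.4 CPM in AAV-iIL12 against 42.4, 44.1, 50.4 and 44.4 CPM in AAV-iLuc. The groups were far apart, and the log2 fold change of -0.69 ± 0.08 (SE) corresponds to 0.618 of the AAV-iLuc level. Nln (ENSMUSG00000021710, chromosome 13, 104159565 to 104246122, minus strand), the related neurolysin, was at 28.3, 32.1 and 32.6 CPM in the AAV-iIL12 libraries and 35.3, 34.2, 34.1 and 34.3 CPM in AAV-iLuc. Its groups did not overlap, by a smaller margin than for Thop1, with a log2 fold change of -0.15 ± 0.07 (SE) that was -0.087 without AAV-iIL12 replicate 1. Nrd1 (ENSMUSG00000053510, chromosome 4, 108857852 to 108918974, plus strand), nardilysin, which cuts before basic residues, was at 186, 195 and 197 CPM in the AAV-iIL12 libraries and 181, 179, 183 and 183 CPM in AAV-iLuc. Its log2 fold change was 0.09 ± 0.05 (SE) and -0.01 with library size only. The exons of Nrd1 share 42 bases with Mir761 on the same strand, and the other 9 members share none with another gene on their strand.

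Counted by the call of the edgeR fit over all genes (quasi-likelihood test with a Benjamini-Hochberg threshold of 0.05), 3 members were higher in AAV-iIL12 (Lap3, Lnpep, Rnpep), 3 were lower (Thop1, Dpp9, Blmh) and 4 were not called. Over all 13990 genes tested 47.2% were called, 23.5% as higher and 23.7% as lower. Because Lap3 was picked in this contrast, nothing is read from these counts. The groups did not overlap for 8 of 10 members and for 52.5% of all genes tested. Lap3 was the 1 member called and more than 2-fold higher, a mark that 5.84% of tested genes reached. The median log2 fold change was 0.05 over the members and -0.01 over all genes tested. Rnpep lost its call when replicate 2 or 3 of AAV-iIL12, or replicate 1 or 2 of AAV-iLuc, was left out (log2 fold change 0.17 to 0.21). It also lost it under scaling by library size alone (0.11) and by the upper quartile (0.13), where Nln was called lower (-0.24 and -0.22). Blmh lost its call when AAV-iIL12 replicate 1 or 2 was left out (log2 fold change -0.22 and -0.21). At a threshold of 0.01 Rnpep and Blmh both lost their calls, while Lap3, Lnpep, Thop1 and Dpp9 kept theirs.

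**Figure D2:**
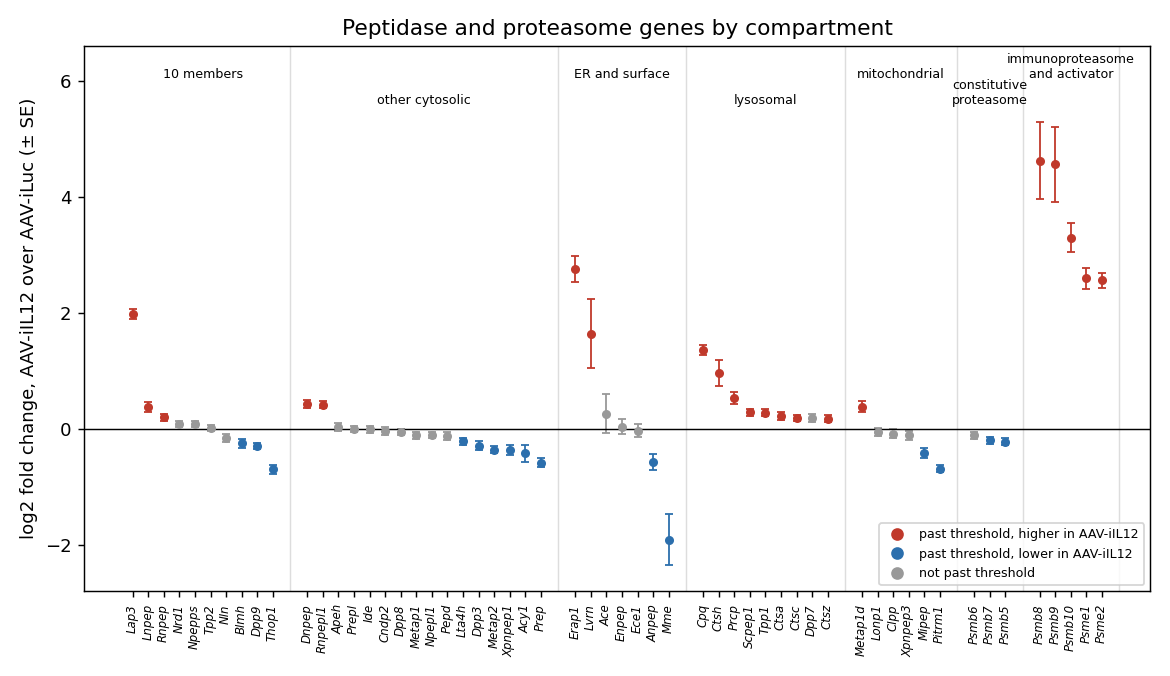
log2 fold change, AAV-iIL12 over AAV-iLuc, with standard error for the tested members and for other peptidase and proteasome genes grouped by compartment (ER is the endoplasmic reticulum); red and blue points passed an adjusted p of 0.05 in edgeR and grey points did not. Lap3 at 1.98 stands above the other 9 members and the other cytosolic peptidases, below Erap1 at 2.76 and the immunoproteasome genes.

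Divided by the annotated exon length, so that genes can be compared, Lap3 had the highest mean level of the members in both groups. Without that division its first place held only in AAV-iIL12. In AAV-iLuc Lap3, at 83.7 CPM, was below Lnpep (210), Nrd1 (182), Npepps (164), Tpp2 (146) and Dpp9 (89.6). In AAV-iIL12 Lap3 stood at 106 ± 2.29 FPKM (CPM per kilobase of exon, TMM-scaled, SD, n = 3), ahead of Nrd1 at 27.0 ± 0.78 and Npepps at 24.1 ± 1.57 FPKM. Then came Lnpep at 19.4, Tpp2 at 14.7, Blmh at 11.2, Rnpep at 9.36, Dpp9 at 9.22, Thop1 at 5.54 and Nln at 3.65 FPKM, where only Rnpep and Dpp9 overlapped as neighbours. In AAV-iLuc Lap3 at 27.0 ± 3.29 FPKM overlapped Nrd1 at 25.4 ± 0.26 FPKM (SD, n = 4), followed by Npepps at 22.7, Lnpep at 14.9, Tpp2 at 14.5, Blmh at 13.3, Dpp9 at 11.4, Thop1 at 8.97, Rnpep at 8.15 and Nln at 4.06 FPKM. Lnpep overlapped Tpp2, Tpp2 overlapped Blmh, and Thop1 overlapped Rnpep in that order.

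Lap3 thus made up 47.9%, 45.7% and 44.8% of the summed FPKM of the 10 members in AAV-iIL12 replicates 1 to 3, against 20.2%, 17.6%, 18.0% and 15.8% in AAV-iLuc replicates 1 to 4. The groups were far apart, with means of 46.1% ± 1.61 in AAV-iIL12 (SD, n = 3) and 17.9% ± 1.81 in AAV-iLuc (SD, n = 4). The summed level of the other 9 members was 124 ± 5.51 FPKM in AAV-iIL12 and 123 ± 1.07 FPKM in AAV-iLuc. That difference was smaller than the spread between libraries, while the sum of all 10 was 230.3 ± 3.55 FPKM in AAV-iIL12 and 150.3 ± 3.46 FPKM in AAV-iLuc.

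**Figure D3:**
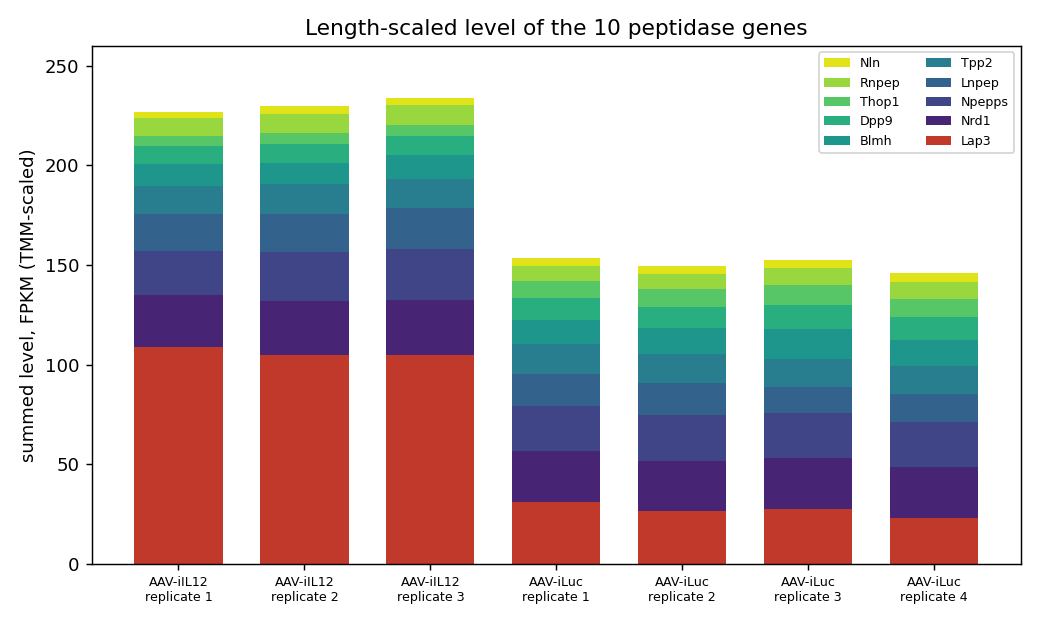
Summed length-scaled level (FPKM, TMM-scaled) of the 10 peptidase genes in each library, AAV-iIL12 left of AAV-iLuc, stacked by gene. The Lap3 segment at the base is at 106 FPKM on average in AAV-iIL12 against 27.0 FPKM in AAV-iLuc, and the other 9 genes sum to between 118 and 129 FPKM in all 7 libraries.

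Within AAV-iLuc the level of Lap3 was highest in replicate 1, the library with the highest interferon gamma signal genes, but by little. Lap3 was 1.21-fold above the mean of replicates 2 to 4 there. In the same library Psmb8, a catalytic subunit of the immunoproteasome, was 5.90-fold, Psmb10 2.09-fold and Psme2, of the proteasome activator, 1.44-fold above that mean. The transcription factor gene Irf1 was 5.54-fold above it. Over the interferon gamma signal genes this ratio ran from 1.85 for Cxcl10 to 13.9 for Gbp5. Leaving replicate 1 out gave log2 fold changes of 0.43 for Lnpep, 0.17 for Rnpep, 0.09 for Nrd1, 0.08 for Npepps and 0.05 for Tpp2. It gave -0.14 for Nln, -0.29 for Blmh, -0.32 for Dpp9 and -0.72 for Thop1, so that no member changed direction. Among the other members the ratio of replicate 1 to the mean of replicates 2 to 4 ran between 0.875 for Blmh and 1.13 for Lnpep. Lap3 varied by 12.2% (coefficient of variation) between AAV-iLuc libraries and by 2.15% between AAV-iIL12 libraries, and among the other 9 members this value was at most 9.93% in AAV-iLuc and 7.62% in AAV-iIL12.

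**Figure D4:**
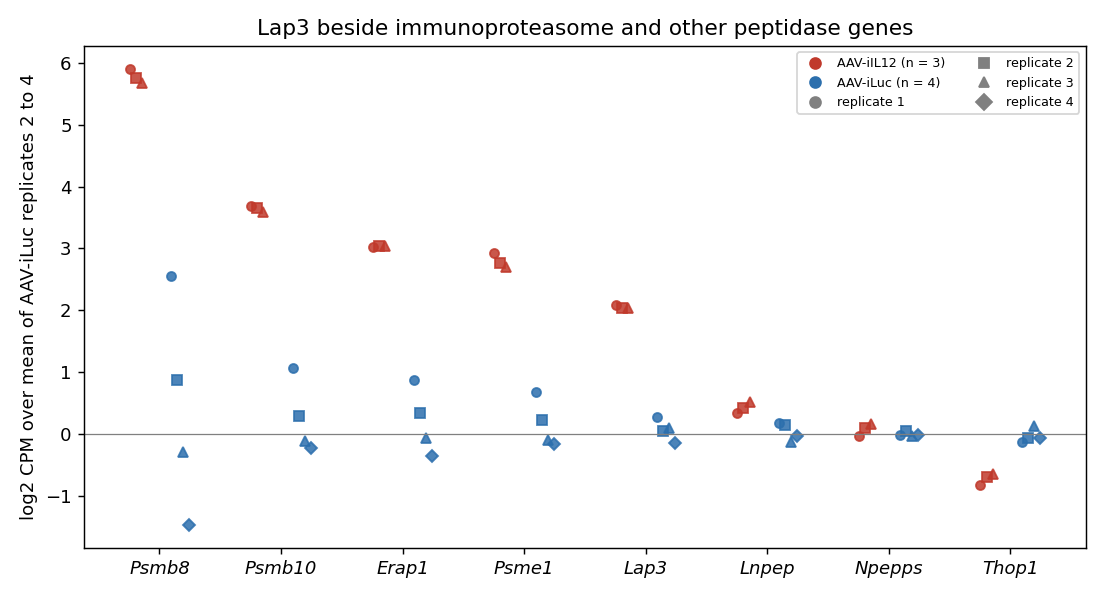
log2 ratio of each library's CPM to the mean of AAV-iLuc replicates 2 to 4, for Lap3, other peptidase genes and genes of the immunoproteasome and its activator, with AAV-iIL12 in red left of AAV-iLuc in blue and marker shape for the replicate. AAV-iLuc replicate 1 is at 2.56 for Psmb8, 0.88 for Erap1 and 0.28 for Lap3, while the AAV-iIL12 libraries are at 5.68 to 5.91, 3.02 to 3.04 and 2.03 to 2.09.

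The genes whose profile over the 7 libraries was most like that of Lap3 were ranked by the root mean square difference of log2 CPM after centring. The 8 nearest were Ggt5, Dock8, Cp, Ubl7, Snx10, Zfp455, Mlkl and Nfix, at 0.07 to 0.11 on the log2 scale. They differed between groups by log2 fold changes of 1.89 (Ubl7) to 2.61 (Ggt5), and Pearson's r with Lap3 lay between 0.995 and 0.999 across 7 libraries, which share the same 2 groups. Ubl7, a ubiquitin-like protein, stood at 479 ± 29.2 CPM in AAV-iIL12 (SD, n = 3) and 129 ± 16.7 CPM in AAV-iLuc (SD, n = 4). Mlkl, the effector of necroptosis, stood at 193 ± 12.9 CPM in the AAV-iIL12 libraries and 48.2 ± 9.14 CPM in AAV-iLuc. Ranked by Pearson's r instead, only Ggt5 stayed among the first 8, which then were Pml, Ggt5, Psme2, Osbpl1a, H2-M3, Mr1, Samhd1 and Jak2. When AAV-iIL12 replicate 1 was left out, 5 of the 8 nearest stayed, and 4 stayed when AAV-iLuc replicate 4 was. Ggt5 had a low level, with a mean of 1.11 CPM in the AAV-iIL12 libraries and 0.176 CPM in AAV-iLuc (72 counts in all). Its log2 fold change was 2.61, against 1.98 for Lap3. At such counts the count of 2 added before log2 narrows differences, so its first rank depends on that setting.

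Beyond the members, 16 other cytosolic peptidases were tested. Of these, 2 rose, 6 fell and 8 did not pass (edgeR, adjusted over all genes), with a median log2 fold change of -0.11. Over all 13990 genes tested, 23.5% were called higher and 23.7% lower, the share to set beside this list and those below. Dnpep, the aspartyl aminopeptidase, rose to a mean of 38.1 CPM in AAV-iIL12, against 28.3 CPM in AAV-iLuc (log2 fold change 0.43 ± 0.06 SE, edgeR adjusted p = 4.01e-04). Prep, prolyl endopeptidase, fell to 58.8 ± 6.58 CPM, against 87.9 ± 2.56 CPM in AAV-iLuc (-0.58, edgeR adjusted p = 1.32e-04). Lta4h, leukotriene A4 hydrolase, which is also an aminopeptidase and was the most abundant of this list, fell by 0.21 (edgeR adjusted p = 0.0176). Acy1, aminoacylase 1, fell by 0.42 (edgeR adjusted p = 0.0389). The call of Lta4h ended without AAV-iIL12 replicate 1 or 3 (adjusted p = 0.0665 and 0.0515), and that of Acy1 without each library but AAV-iLuc replicate 1 (0.0539 to 0.112), in DESeq2 (0.0507) and in limma-voom (0.0566). With library size only, 10 of the list fell.

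Of 10 peptidases of the endoplasmic reticulum and the cell surface, 7 were tested, of which 2 rose, 2 fell and 3 did not pass. The shares over all genes tested were 23.5% higher and 23.7% lower. Erap1, which trims peptides for class I MHC molecules, stood at 281, 282 and 284 CPM in AAV-iIL12, against 63.3, 43.8, 32.9 and 26.8 CPM in AAV-iLuc. The groups were far apart, with AAV-iLuc replicate 1 the highest of its group, and Erap1 rose by 2.76 ± 0.23 (SE) on the log2 scale (edgeR adjusted p = 1.13e-05). Mme, neprilysin, fell to 0.299 ± 0.169 CPM, against 1.15 ± 0.374 CPM in AAV-iLuc (edgeR adjusted p = 0.00511). Lvrn, laeverin, rose by 1.64, at means of 0.869 CPM in AAV-iIL12 libraries and 0.280 CPM in AAV-iLuc libraries that overlapped (edgeR adjusted p = 0.0460), a call that was kept only without AAV-iIL12 replicate 3 when single libraries were left out. Without AAV-iLuc replicate 3 Lvrn was no longer tested, and without the other 5 libraries its edgeR adjusted p lay between 0.0650 and 0.191. Fap, a surface peptidase of fibroblasts, was not tested at the usual filter. It was called higher without AAV-iIL12 replicate 3. With all 7 libraries and no low-count filter it was called higher too (log2 fold change 1.69, edgeR adjusted p = 0.00908). In each of these settings 3 of the list rose.

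Of 9 lysosomal exopeptidases 8 rose, 0 fell and 1 did not pass in edgeR, against 23.5% higher and 23.7% lower over all genes tested. DESeq2 and limma-voom also gave 8 and 0, and at an unadjusted p under 0.05 edgeR gave 9 higher and 0 lower. The share of all genes at that unadjusted p is not given here. Their median log2 fold change was 0.28. Cpq, carboxypeptidase Q, rose to 85.9 ± 9.31 CPM in AAV-iIL12, against 33.5 ± 3.00 CPM in AAV-iLuc (log2 fold change 1.36, edgeR adjusted p = 3.21e-06). Ctsh, cathepsin H, an aminopeptidase, rose by 0.97 (edgeR adjusted p = 0.00539) and Prcp, prolylcarboxypeptidase, by 0.53 (0.00296). Ctsz, cathepsin Z, was the most abundant at 521 ± 18.4 CPM in the AAV-iIL12 libraries and 460.2 ± 32.4 CPM in AAV-iLuc (edgeR adjusted p = 0.0497), and its call ended without each single library but AAV-iLuc replicate 4 (0.0749 to 0.122). The number that rose was 5 without AAV-iIL12 replicate 3 and also 5 when scaled by library size alone or by the upper quartile. Leukocyte markers, which mark cells rich in lysosomes, summed to 31.7 CPM in AAV-iIL12 replicate 1 and 29.4 CPM in AAV-iLuc replicate 1. Ctsh was highest in these libraries of each group, at 16.9 and 7.28 CPM, as were Cpq (96.6 and 37.1 CPM) and Tpp1 (407 and 348 CPM). The other genes of the list were not highest in both. Ctsc and Ctsa were lowest of AAV-iIL12 in replicate 1, at 70.2 and 295 CPM, and Prcp was lowest of AAV-iLuc in replicate 1, at 23.8 CPM. The part of leukocyte RNA in this result was not tested.

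Of 6 mitochondrial peptidases 1 rose, 2 fell and 3 did not pass, against 23.5% higher and 23.7% lower over all genes tested. Pitrm1, the presequence protease, fell by 0.68 (edgeR adjusted p = 1.03e-05) and Mipep, the mitochondrial intermediate peptidase, by 0.41 (0.00331), while Metap1d, a methionine aminopeptidase, rose by 0.38 (0.00933). Lonp1, the most abundant, stood at 388 ± 30.3 CPM in the AAV-iIL12 libraries and 403 ± 19.0 CPM in AAV-iLuc and did not pass.

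Upstream and downstream of the cytosolic peptidases, all 5 genes of the immunoproteasome and its activator rose, by 2.56 (Psme2) to 4.62 (Psmb8) on the log2 scale, with Psmb9 at 4.56, Psmb10 at 3.29 and Psme1 at 2.60 (edgeR adjusted p between 1.19e-06 and 3.30e-04). Leaving out AAV-iLuc replicate 1, the highest of its group, gave 5.80 for Psmb8 and 6.04 for Psmb9, which turned their order round. All 5 genes of peptide transport and loading also rose, including Tap2 by 4.23, Tap1 by 4.14, Tapbpl by 3.94 and B2m, the most abundant, by 2.88. With that library left out, Tap2 was at 4.85 and Tap1 at 5.05. The 6 interferon gamma signal genes all rose, with Gbp5, Gbp2 and Igtp at 6.10, 5.73 and 5.36 on the log2 scale (edgeR adjusted p = 1.96e-05, 8.46e-04 and 0.00209). They were at 8.22, 7.30 and 7.41 without AAV-iLuc replicate 1. The constitutive catalytic subunits Psmb5 and Psmb7 fell by 0.22 and 0.20 (edgeR adjusted p = 0.0123 and 0.0161), while Psmb6 passed, as lower, only with library size or upper quartile scaling. The call of Psmb7 ended without AAV-iIL12 replicate 1 or 3 (0.0574 and 0.0661), which left 1 of the 3 as lower, and with the replicate number as a block (0.0575).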

How the data were processed

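The deposited values are raw fragment counts per gene in 7 libraries. Per the file headers, the authors counted exons per gene with featureCounts 1.6.0, reverse-stranded and paired-end, with GENCODE vM32. STAR 2.7.9a, FastQC 0.11.8, edgeR, limma and the build GRCm39 are named in the submitters' processing notes. No multi-mapping option stands in the headers, so reads shared with near-identical copies may be missing.

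Symbols matched 52029 of 56953 identifiers. AAV-iIL12 (n = 3) and AAV-iLuc (n = 4) were set against each other in R 4.3.3 with edgeR 4.0.16 (quasi-likelihood F test, TMM, filterByExpr, Benjamini-Hochberg over 13990 genes, threshold 0.05). The method was run on simulated data with 50 genes changed at each of 2-fold, 4-fold, 0.5-fold and 0.25-fold among 13764 genes. There 84% to 98% of the changed genes were recovered, and 6.25% of the calls were false. Far more genes were called in these data (47.2%), a setting that the simulation did not test. CPM and FPKM were computed from the counts with TMM-scaled library sizes and the exon lengths in the files. Standard errors are the log2 fold change over the root of its F statistic. For profiles, a prior count of 2 was added before log2 CPM. Alternatives were 3 scalings, 2 filters, DESeq2 1.42.0, limma-voom (limma 3.58.1), a threshold of 0.01, a replicate block and each library left out. Genes outside the members were named by rule: per list, the 3 largest changes past the threshold and the most abundant gene, and the 8 profiles nearest to Lap3. Other listed genes named (Psme2, Fap, Psmb6, Irf1, Ctsc, Ctsa and the first 8 by Pearson's r) were chosen after their values were seen. So were Tpp1, Lyz2, Ptprc, Laptm5, Cd8a and Cxcl10. The GC box motif was likewise added after the windows were seen. One gene of the interferon list is not reported here and is left out of its sums and counts. Members and lists were chosen with earlier results of these data known. No pair of libraries within a group agreed within counting noise, and the labels give no batch.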

Additional observations from a re-analysis of the deposited data

Results flagged for a closer look

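In 6 of 53 values examined over the 4 AAV-iLuc libraries, 1 library stood far from the other 3. Chance alone would mark about 1 in 20 only if the values were independent. They are not, since the interferon sum contains Igtp and Gbp5, so no excess over chance is read from this count. AAV-iLuc replicate 1 was the one in 4 of these. Its interferon gamma signal genes summed to 444.5 CPM, against 98.0 CPM in the nearest library. Igtp, an interferon-inducible GTPase, stood at 176 CPM there, against 25.9 CPM in the nearest, and Gbp5 at 6.71 CPM, against 0.987 CPM. Prcp was lowest there, at 23.8 CPM, with the next library at 26.4 CPM. Dnpep was highest in AAV-iLuc replicate 4, at 30.4 CPM, with the next at 27.8 CPM. The pericyte marker sum was highest in AAV-iLuc replicate 3, at 3.04 CPM, with the next at 2.41 CPM. None of the 10 peptidases around Lap3, nor the share of Lap3 among them, was marked. The cause of these values was not tested.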

How the results depend on the processing

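The log2 fold change of Lap3 lay between 1.88 and 2.05 over all alternatives run, 1.91 with the replicate block. The share of Lap3 among the members moved with the scale, to 23.9% in AAV-iIL12 and 7.67% in AAV-iLuc when CPM was not divided by length. Without single libraries it lay between 45.2% and 46.8% in AAV-iIL12 and between 17.2% and 18.6% in AAV-iLuc. Library size as the only scaling moved all log2 fold changes by a median of -0.09, where 36% of the calls were higher (49.8% with TMM), and upper quartile scaling by -0.07 (38.5%). Other cytosolic peptidases that fell numbered 10 with library size only. Peptidases of the endoplasmic reticulum and surface that rose numbered 1 with library size only, upper quartile, limma-voom, the replicate block, a threshold of 0.01 or at least 1 CPM in 3 libraries (where 1 fell), and 1 to 3 without single libraries. With no low-count filter 3 of them rose. Lysosomal exopeptidases that rose numbered 5 with library size only, upper quartile or a threshold of 0.01, and 5 to 7 without single libraries. Constitutive catalytic subunits that fell numbered 1 with the replicate block, 0 in edgeR at a threshold of 0.01 (2 at an unadjusted p under 0.05, and 2 in DESeq2 and limma-voom at 0.05), and 1 to 2 without single libraries. Of the 8 profiles nearest to Lap3, 1 stayed with Pearson's r and 4 to 7 without single libraries. Lonp1, not called, lay between -0.10 and 0.0074 without single libraries, the highest without AAV-iIL12 replicate 1. The causes of these shifts were not tested. Libraries with the same replicate number in their titles correlated at 0.088, 0.034 and -0.049 in their deviations from group means, so the numbers were not taken to pair mice. The block lowered the calls to 2832 higher and 2828 lower, from 3292 and 3316. Acy1, Lvrn, Ctsc, Ctsa and Psmb7 lost their calls there, and no member did.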
